A study of Mus musculus with 9 samples.

Results

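The 48 genes described here encode core and regulatory factors of pre-mRNA splicing, out of 23285 entries in the authors' deposited gene table. They are all the entries of 1 symbol that match a name pattern, which was chosen with earlier results of these data known. Matched were serine- and arginine-rich proteins (Srsf genes, 11) and proteins of the SF3a and SF3b complexes (Sf3a and Sf3b genes, 8). Also matched were snRNP proteins (Snrp genes, 11, without the imprinted Snrpn) and heterogeneous nuclear ribonucleoproteins (Hnrnp genes, 18). Genes of these complexes with other names, such as Snrnp70, are not members. In all 3 comparisons 47 of the 48 were tested by the authors, and the exception was Srsf12, which stayed below 1 FPKM in each group.

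Immature erythroid cells were sorted from the bone marrow of C57BL/6 mice and their RNA sequenced, in 9 libraries, 3 per group. KOa cells carried a floxed TRIM28 gene on both alleles together with the Mx1Cre transgene, were CD71hi TER119+ and are labelled as modestly deleted. Listed for KOa are 5 to 8% undeleted and 26% residual mRNA. KOb cells had the same genotype, were CD71hi TER119- and are labelled as severely deleted. Listed for KOb are 1 to 4% undeleted and 18% residual mRNA. FFa cells, the control, carried the floxed alleles without Cre and were CD71hi TER119+. The Mx1 promoter answers to interferon and is not restricted to erythroid cells. Cre was induced with 5 injections of poly(I:C), and mice were analysed 2 weeks later. The sources used here give neither the age of the mice nor whether FFa mice received poly(I:C). KOb differs from FFa in both the deletion and the TER119 gate, and both mutants differ from FFa in both the deletion and Cre, so these cannot be told apart.

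Introns are removed by the spliceosome, which is assembled on each transcript from small nuclear ribonucleoproteins (snRNPs). Most spliceosomal snRNAs carry a ring of Sm proteins, and U6 carries a related LSm ring. U1 snRNP recognises the start of an intron, and U2 snRNP, with its SF3a and SF3b subcomplexes, engages the branch point near the end. SR proteins bind exons and mostly favour their inclusion, while hnRNP proteins bind nascent RNA and often oppose it. Maturing erythroblasts change the splicing of many transcripts, and SF3B1 is the splicing gene mutated in human anaemias with ring sideroblasts.

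The FPKM values (fragments normalised for transcript length and mapped depth), log2 ratios and q values below are those of the authors' deposited table, with 1 value per gene and group. Values per library were not used, which leaves the depth unknown and allows no SD. The ± after a log2 ratio is the standard error implied by the deposited statistic, and called means a completed test with a q below 0.05. Trim28 itself had 6.64 FPKM in KOa and 4.76 FPKM in KOb, against 26.0 FPKM in FFa, and was called lower in both mutants in the authors' deposited table (log2 ratios -1.97 ± 0.30 and -2.45 ± 0.30). Its difference between the mutants was not called (KOb over KOa -0.48 ± 0.32, q = 0.0535 in the authors' deposited table). The labelled cell type was matched by Gata1 at 105 to 138 FPKM and Klf1 at 62.0 to 80.6 FPKM over the groups. Alas2, the erythroid enzyme of heme synthesis, was lower in both mutants, and the stem cell factor receptor gene Kit was higher in both, at 0.751 FPKM in KOa and 2.36 FPKM in KOb against 0.399 FPKM in FFa. Other cell types also moved with genotype. Of 11 B cell markers, 10 were called lower in each mutant, with a summed level of 27.1 FPKM in KOa and 27.4 in KOb against 248 in FFa. Of 12 granulocyte markers 1 was higher and 6 lower in KOa and 1 higher and 8 lower in KOb, with sums of 16800 FPKM in KOa and 13600 in KOb against 49300 in FFa, and of 10 tested macrophage markers 7 were lower in KOa and 10 in KOb (97.0 and 93.0 against 360 FPKM). T and NK cell markers were called higher in 1 and lower in 1 of 8 tested in KOa, and higher in 1 and lower in 4 of 7 in KOb (17.3 and 15.9 against 19.4 FPKM in FFa). Megakaryocyte markers were higher in 3 of 5 tested in KOa, and higher in 3 and lower in 1 of 5 in KOb (68.4 and 54.9 against 34.6 FPKM). No marker of these lists that the table holds was at 0 in any group. Their part in the splicing gene values was not tested, and in bulk RNA fewer cells of a type and less RNA per cell cannot be told apart.

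Most splicing factor genes were well expressed. Above 5 FPKM stood 45 of the 47 tested genes in KOa, 45 in KOb and 44 in FFa. Snrpg, an Sm ring protein gene, had 343 FPKM in KOa, 322 in KOb and 395 in FFa, and Hnrnpa2b1, whose proteins bind and transport RNA, had 369 in KOa, 311 in KOb and 308 in FFa. These were the highest levels of the set in all 3 groups. Hnrnpm, with 164 FPKM in KOa, 158 in KOb and 161 in FFa, was among the steadiest, and neither it nor Hnrnpa2b1 nor Snrpg was called in any comparison. At the low end, Sf3b4 reached 3.24 FPKM in KOa, 4.28 in KOb and 2.73 in FFa, and Snrpc, a U1 protein gene, 4.10, 4.86 and 4.14. The members' summed level was 2330 FPKM in KOa, 2370 in KOb and 2340 in FFa. The 47 tested genes were highest in KOb for 27, in KOa for 8 and in FFa for 12.

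**Figure D1:**
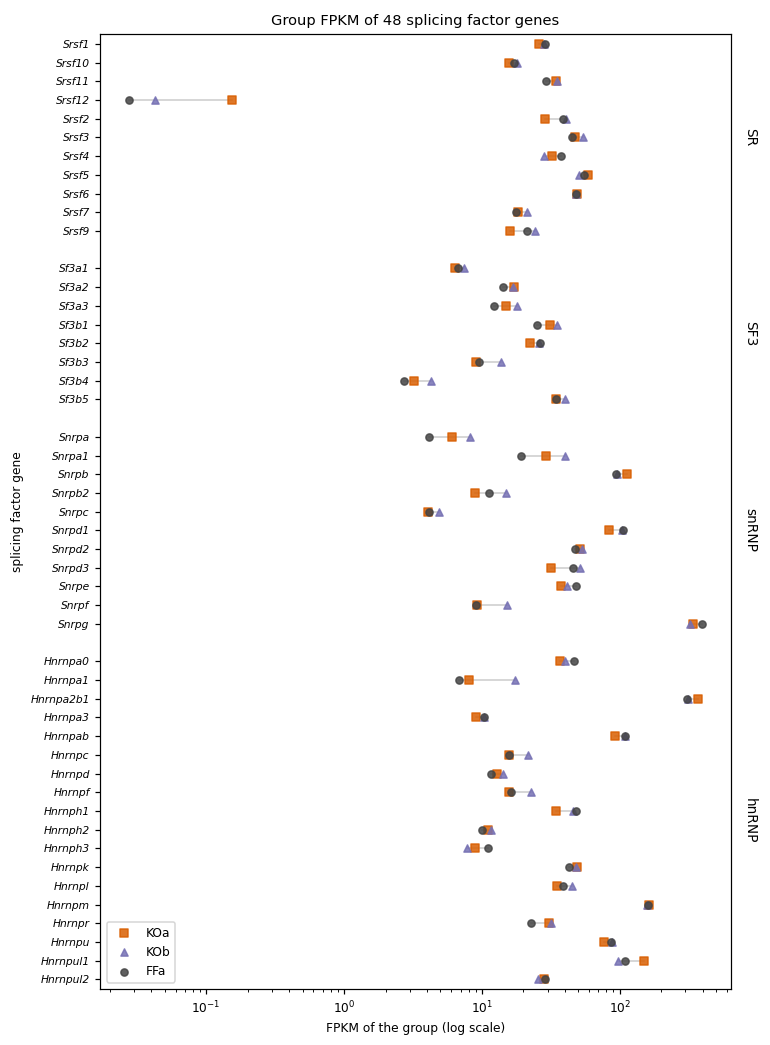
FPKM of the 48 splicing factor genes in KOa (squares), KOb (triangles) and FFa (circles) on a log axis, 1 value per gene and group, with a grey line over the range of the groups. Levels run from below 1 FPKM for Srsf12 to 395 FPKM for Snrpg in FFa, and the groups lie close together for most genes. The widest gap is that of the untested Srsf12 (highest over lowest group 5.62), and among tested genes Hnrnpa1, Snrpa and Snrpa1 have wider gaps.

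KOa and FFa cells were sorted through the same gate. Of the splicing factor genes, 2 were called higher and 2 lower of 47, beside 7.99% of all tested genes called higher and 14.1% called lower (22.1% in either direction). Their median log2 ratio was -0.01, against -0.08 over all tested genes with a finite ratio, and the median size of the ratio was 0.20, against 0.36. These ratios depend on the scaling: FPKM scaled to the same sum without globin would add 0.54 to each ratio of KOa over FFa and put 46 of the 47 members above 0. Of the 47 tested members 0 had a ratio of 1 or more in size, and 34 stayed under 0.3. Srsf12, not tested, had 0.155 FPKM in KOa and 0.0428 in KOb, against 0.0276 FPKM in FFa. Splicing genes also carried smaller implied errors than most genes (median 0.29 against 0.39).

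Snrpa1, which encodes a protein found only in U2 snRNP, had the largest ratio of the tested members in KOa, at 29.2 FPKM in KOa against 19.4 FPKM in FFa (log2 ratio 0.59 ± 0.27, q = 0.00991 in the authors' deposited table). Hnrnpul1, a gene of an hnRNP U-like protein, had 149.5 FPKM in KOa against 109.7 FPKM in FFa and was called with little margin (0.45 ± 0.30, q = 0.0464 in the authors' deposited table). The falls were in Snrpd3, an Sm ring gene, and in Hnrnph1, whose protein binds G-rich RNA. Snrpd3 had 31.8 FPKM in KOa against 46.1 FPKM in FFa (log2 ratio -0.54 ± 0.23, q = 0.0309 in the authors' deposited table). Hnrnph1 had 34.3 FPKM in KOa and 46.0 FPKM in KOb, against 48.1 FPKM in FFa (KOa over FFa -0.49 ± 0.27, q = 0.0247 in the authors' deposited table). The sign of Hnrnph1 turned when FPKM were scaled to the same sum without globin, to a log2 ratio of 0.0463, and the ratio of Snrpd3 shrank to -0.0008. Scaled to the same sum with globin kept, the ratios were -0.53 for Hnrnph1 and -0.58 for Snrpd3. Hnrnpr, an RNA-binding hnRNP, missed the threshold at 30.8 FPKM in KOa against 22.7 FPKM in FFa (0.44 ± 0.28, q = 0.0515 in the authors' deposited table).

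No SR gene was called in KOa by the authors' Cuffdiff test (at an unadjusted p below 0.05, 0 higher and 2 lower). At that unadjusted p, 1340 of all 10761 tested genes were higher and 2129 lower. Srsf2, an exon enhancer-binding protein, came nearest, with 28.9 FPKM in KOa against 39.1 FPKM in FFa (-0.43 ± 0.27, q = 0.0526 in the authors' deposited table). Srsf5 and Srsf3, the SR genes of highest mean level, had log2 ratios of 0.10 ± 0.29 and 0.06 ± 0.30. No SF3 gene was called either (0 at an unadjusted p below 0.05), with log2 ratios between -0.22 (Sf3b2) and 0.29 (Sf3b1). When p was taken instead from a standard normal at the deposited statistic (the normal reading below), 0 members were called in either direction in KOa, beside 2.52% of all tested genes called higher and 4.96% lower.

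KOb against FFa gave 9 members called higher and 0 lower of 47, beside 12.8% of all tested genes called higher and 15.2% called lower (28.0% in either direction). At an unadjusted p below 0.05, 11 members were higher and 2 lower, beside 1983 higher and 2223 lower of all 10584 tested genes. The normal reading called 1 higher and 0 lower, beside 3.63% of all tested genes higher and 5.92% lower. Their median log2 ratio was 0.16, against -0.01 over all tested genes with a finite ratio, so 0.17 above them. Of the members, 31 had a ratio above 0 (66.0%, against 49.1% of all tested genes). FPKM sums differ between groups, mainly through globin, which made up 76.3% of the sum in KOa, 53.3% in KOb and 64.6% in FFa. Scaling to the same sum would add 0.91 to every log2 ratio of KOb over FFa and put all 47 members above 0, and doing so without globin would add 0.51, with the same split. The distance of the members from the median of all genes is unaffected by such scaling.

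U2 snRNP proteins are encoded by 10 of the members (the SF3 genes, Snrpa1 and Snrpb2), a grouping made after the values were seen. Of these 10 members 5 were called higher, beside 12.8% of all tested genes, and the normal reading called 1. Snrpa1 had 39.9 FPKM in KOb against 19.4 FPKM in FFa, which is 2.06-fold (log2 ratio 1.04 ± 0.27, q = 0.000619 in the authors' deposited table). It was the member called in both mutants against FFa, and the one still called by the normal reading (adjusted p 0.00291, from the deposited Cuffdiff statistic). Sf3b4, whose protein sits on the pre-mRNA beside the branch point, had 4.28 FPKM in KOb against 2.73 FPKM in FFa (0.65 ± 0.39, q = 0.0499 in the authors' deposited table). Sf3a3, an SF3a subunit, had 17.8 FPKM in KOb and 15.0 in KOa, against 12.3 FPKM in FFa (KOb over FFa 0.54 ± 0.32, q = 0.0247 in the authors' deposited table). Sf3b3, a large scaffold of SF3b, had 13.7 FPKM in KOb against 9.49 FPKM in FFa (0.53 ± 0.30, q = 0.0133 in the authors' deposited table). Sf3b1, the branch-point clamp of the complex, had 35.3 FPKM in KOb and 31.0 in KOa, against 25.3 FPKM in FFa (KOb over FFa 0.48 ± 0.29, q = 0.0307 in the authors' deposited table). Each of these ratios was under 2 implied standard errors except that of Snrpa1.

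The other SF3 genes were not called in KOb. Sf3a1, Sf3a2 and Sf3b5 had log2 ratios of 0.15 ± 0.30, 0.24 ± 0.28 and 0.22 ± 0.24, and Sf3b2 stood at 26.2 FPKM in both KOb and FFa. Over the 8 SF3 genes the median log2 ratio was 0.36, that is 0.38 above all tested genes. Snrpb2, the partner of Snrpa1 on U2 snRNA, had 14.9 FPKM in KOb against 11.3 FPKM in FFa and was not called (0.41 ± 0.29, q = 0.130).

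Among U1 genes, Snrpa had 8.23 FPKM in KOb and 6.08 in KOa, against 4.14 FPKM in FFa, a 1.99-fold difference of KOb from FFa (log2 ratio 0.99 ± 0.37, q = 0.00115 in the authors' deposited table). Its deposited locus overlaps that of another entry, BC024978, and the sources used here do not say whether counting used strand. Snrpc was not called (0.23 ± 0.40). Snrnp70, a U1 gene outside the members by its name, lay the other way and was not called. It had 38.2 FPKM in KOb and 40.3 in KOa, against 47.3 FPKM in FFa (KOb over FFa -0.31 ± 0.26, q = 0.199 in the authors' deposited table). The 7 Sm ring genes, whose proteins are shared by several snRNPs, gave no call in KOb by the authors' Cuffdiff test (0 at an unadjusted p below 0.05 and 0 with the normal reading) and had a median log2 ratio of 0.01. The widest was Snrpf, with 15.3 FPKM in KOb against 9.13 FPKM in FFa (0.75 ± 0.50, q = 0.202), whose deposited locus also spans Ccdc38 and 4933408J17Rik. The split of Snrp genes into Sm, U1 and U2 proteins follows their textbook place and was made after their values were seen, and the difference between these groups was not tested.

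Of the 18 hnRNP genes 3 were called higher in KOb (Hnrnpa1, Hnrnpr and Hnrnpf), a share of 16.7% beside 12.8% of all tested genes, and the normal reading called 0. Hnrnpr had 31.8 FPKM in KOb against 22.7 FPKM in FFa (log2 ratio 0.48 ± 0.28, q = 0.0244 in the authors' deposited table), and Hnrnpf, a relative of Hnrnph1, had 22.6 FPKM in KOb against 16.3 FPKM in FFa (0.47 ± 0.31, q = 0.0441 in the authors' deposited table). Hnrnpc, which binds uridine tracts, had 21.5 FPKM in KOb against 15.8 FPKM in FFa and missed the threshold (0.44 ± 0.30, q = 0.0515). The lowest ratio was that of Hnrnph3 (-0.50 ± 0.35, q = 0.0593). None of the 10 tested SR genes was called in KOb by the authors' Cuffdiff test (at an unadjusted p below 0.05, 0 higher and 1 lower, and 0 with the normal reading). At that unadjusted p, 1983 of all 10584 tested genes were higher and 2223 lower. Srsf4 had the lowest SR ratio, with 28.2 FPKM in KOb against 37.2 FPKM in FFa (-0.40 ± 0.27, q = 0.0791), and Srsf7 the highest, with 21.4 FPKM in KOb against 17.5 FPKM in FFa (0.29 ± 0.30).

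**Figure D2:**
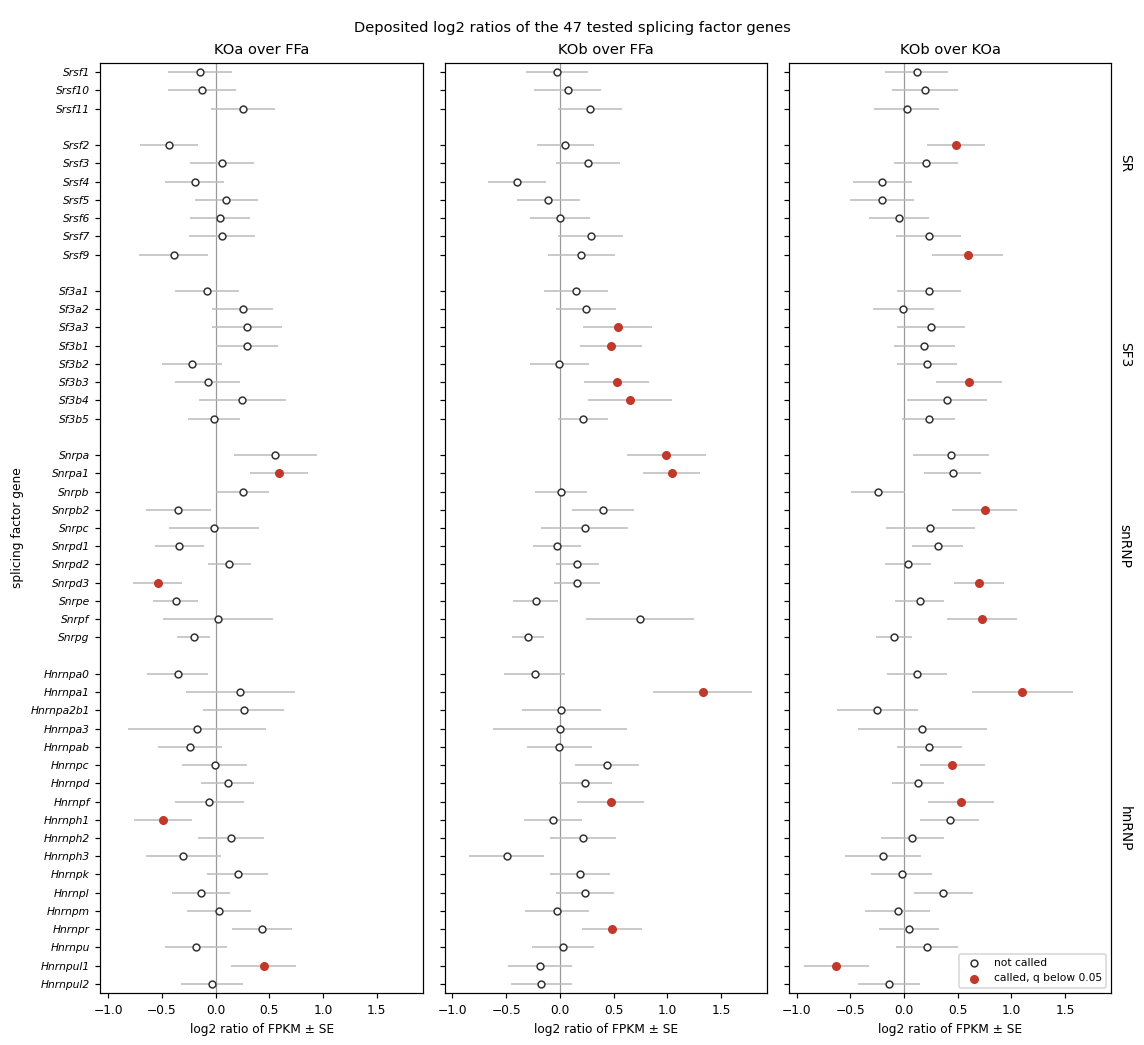
Log2 ratio of FPKM for the 47 tested splicing factor genes in each comparison, with bars of 1 implied standard error, by family. Filled points passed a q of 0.05: 4 in KOa over FFa, 9 in KOb over FFa, all to the right of 0, and 10 in KOb over KOa, of which Hnrnpul1 alone lies to the left. Of all tested genes 22.1%, 28.0% and 16.2% were called in these comparisons. With all FPKM scaled to the same sum, Hnrnpul1 would move to the right, to 0.32, and without globin it would lie at -0.66.

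Hnrnpa1, whose protein represses splice sites and shuttles between nucleus and cytoplasm, had the largest ratio among the tested members. Its entry had 17.3 FPKM in KOb, against 6.87 FPKM in FFa, or 2.52-fold (log2 ratio 1.33 ± 0.46, q = 0.000619 in the authors' deposited table), and 8.05 FPKM in KOa. The authors' deposited table holds another entry at exactly the same locus, which joins Hnrnpa1 with the predicted gene Gm10052 and was not tested for low data quality. That entry had 10.98 FPKM in KOa and 14.5 FPKM in KOb, against 11.1 FPKM in FFa. Adding both entries gave 31.7 FPKM in KOb against 18.0 FPKM in FFa, a log2 ratio of 0.82, and 19.0 FPKM in KOa, a ratio of 0.08. The sources used here do not say how reads were shared between the entries, and the size of the Hnrnpa1 difference is uncertain.

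**Figure D3:**
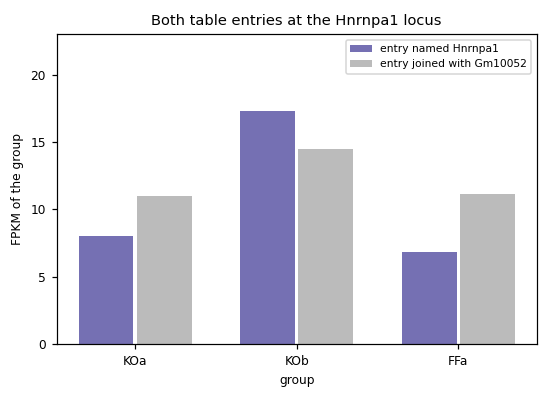
FPKM by group of both entries that the authors' deposited table lists at the Hnrnpa1 locus: the entry of that name (purple) and the entry joined with Gm10052 (grey). Both are highest in KOb, where the named entry reaches 17.3 FPKM and the joined one 14.5 FPKM.

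Snrpa1 lies at chromosome 7, 66059003 to 66074587, on the plus strand of mm10 by GENCODE M21. Hnrnpa1 lies at chromosome 15, 103240432 to 103246692, plus strand. Sf3a3 lies at chromosome 4, 124714776 to 124732460, plus strand. Sf3b1 lies at chromosome 1, 54985169 to 55027481, minus strand, and Sf3b3 at chromosome 8, 110810239 to 110846787, minus strand. These are the members called higher in KOb that have a single start in RefSeq's promoter table (GRCm38.p6), and the 150 bases before that RefSeq start are shown because these genes were called in the same direction. Capitals mark an ETS core (CCGGAAG) or a GC box (GGGCGG) on either strand, by letters alone. The windows are chr15:103240247-103240396, chr4:124714711-124714860, chr1:55027479-55027628, chr8:110846804-110846953 and chr7:66060186-66060335 in the order of the lines. The RefSeq starts differ from the GENCODE gene bounds: the Snrpa1 window lies inside the GENCODE gene span, and the Sf3a3 and Sf3b1 windows reach into theirs.
Hnrnpa1: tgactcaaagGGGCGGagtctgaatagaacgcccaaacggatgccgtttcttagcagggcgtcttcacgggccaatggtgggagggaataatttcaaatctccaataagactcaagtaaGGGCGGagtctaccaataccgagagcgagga
Sf3a3: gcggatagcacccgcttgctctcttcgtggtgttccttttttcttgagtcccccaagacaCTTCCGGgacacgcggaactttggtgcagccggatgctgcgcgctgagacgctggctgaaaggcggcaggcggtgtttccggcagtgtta
Sf3b1: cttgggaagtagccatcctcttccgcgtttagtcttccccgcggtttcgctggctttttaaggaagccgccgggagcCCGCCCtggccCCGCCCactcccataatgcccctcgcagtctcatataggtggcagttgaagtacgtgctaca
Sf3b3: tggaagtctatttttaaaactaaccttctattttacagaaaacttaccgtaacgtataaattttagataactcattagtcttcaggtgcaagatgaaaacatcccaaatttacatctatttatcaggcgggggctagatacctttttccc
Snrpa1: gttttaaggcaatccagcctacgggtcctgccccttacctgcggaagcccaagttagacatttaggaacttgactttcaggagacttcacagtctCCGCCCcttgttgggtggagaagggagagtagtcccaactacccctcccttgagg

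Neither of the marked motifs stands in all the printed windows: GC boxes stand before Hnrnpa1, Sf3b1 and Snrpa1, the ETS core before Sf3a3, and neither before Sf3b3. The 250 bases upstream were searched in the same way in all 32851 RefSeq windows, which match 43 of the 48 members with 57 windows. The ETS core occurred in 18 of the 57 member windows (31.6%, against 6.91% of all windows) and the GC box in 40 (70.2% against 32.7%). CCAAT was found in 45.6% of member windows against 33.8%, and the E2F site TTTCCCGC in 7.02% against 0.895%. The NRF1 core GCATGCGC stood in 5.26% of member windows against 2.26% of all, and the YY1 core AAGATGGC in 1.75% against 1.56%. TATAAA was found in 8.77% of member windows against 12.4% of all. The GATA site (AGATAA) was found in 5.26% against 9.99%. Of the 9 members called higher in KOb 8 have windows. The ETS core was found for 3 and the GC box for 6 of these genes, beside 14 and 31 of the 43 matched members. CCAAT was found for 4 of the 8, TATAAA and the GATA site for 2 each, the E2F site for 1, and the NRF1 and YY1 cores for 0. These are matches of letters, with no test and no evidence of binding.

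KOb against KOa compares the mutant populations, which share their genotype and differ in gate and degree of deletion. Here 9 members were called higher and 1 lower of 47, beside 10.0% of all tested genes called higher and 6.19% called lower (16.2% in either direction). The normal reading called 1 higher and 0 lower, beside 1.91% of all tested genes higher and 0.793% lower. The median log2 ratio was 0.20, against 0.05 over all tested genes with a finite ratio, and 35 members (74.5%) lay above 0, against 53.8% of all tested genes. Scaling to the same sum would add 0.95 to every ratio and put all 47 members above 0. KOb is used in this comparison and in that with FFa, and KOa in this one and in its own comparison with FFa, so the results are not separate.

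The snRNP genes gave the widest rises after Hnrnpa1, which had 17.3 FPKM in KOb against 8.05 FPKM in KOa (log2 ratio 1.10 ± 0.47, q = 0.00161 in the authors' deposited table). With the joined entry added, the Hnrnpa1 ratio was 0.74. Snrpb2 had 14.9 FPKM in KOb against 8.86 FPKM in KOa (0.75 ± 0.30, q = 0.00365 in the authors' deposited table). Snrpf had 15.3 FPKM in KOb against 9.25 FPKM in KOa (0.73 ± 0.32, q = 0.0195 in the authors' deposited table). Snrpd3 had 51.5 FPKM in KOb against 31.8 FPKM in KOa (0.70 ± 0.24, q = 0.00405 in the authors' deposited table), and was the member still called with the normal reading (adjusted p 0.0471, from the deposited Cuffdiff statistic). Snrpd3 was thus lower in KOa than in either other group on the deposited scale, and its level in KOb did not differ detectably from the 46.1 FPKM of FFa (0.16 ± 0.22, q = 0.596).

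Sf3b3 was the SF3 gene called, with 13.7 FPKM in KOb against 9.01 FPKM in KOa (log2 ratio 0.61 ± 0.30, q = 0.00580 in the authors' deposited table). Snrpa1 had 39.9 FPKM in KOb against 29.2 FPKM in KOa and just missed the threshold (0.45 ± 0.27, q = 0.0521). Hnrnpf had 22.6 FPKM in KOb against 15.6 FPKM in KOa (0.53 ± 0.31, q = 0.0176 in the authors' deposited table), and Hnrnpc had 21.5 FPKM in KOb against 15.7 FPKM in KOa (0.45 ± 0.30, q = 0.0487 in the authors' deposited table). Of the SR genes 2 were called here. Srsf9 had 24.3 FPKM in KOb against 16.1 FPKM in KOa (0.59 ± 0.33, q = 0.0133 in the authors' deposited table). Srsf2 had 40.5 FPKM in KOb against 28.9 FPKM in KOa (0.49 ± 0.27, q = 0.0286 in the authors' deposited table). Both lay lower in KOa than in FFa without being called there, Srsf9 with 16.1 FPKM in KOa against 21.1 FPKM in FFa (-0.39 ± 0.32).

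The fall in KOb was that of Hnrnpul1, with 96.4 FPKM in KOb against 149.5 FPKM in KOa (log2 ratio -0.63 ± 0.30, q = 0.00248 in the authors' deposited table), a direction that turned to 0.32 with FPKM scaled to the same sum. Scaled to the same sum without globin, the ratio stayed at -0.66. On the deposited scale KOa was the highest group for this gene, while KOb and FFa, at 96.4 and 109.7 FPKM, were not called different (-0.19 ± 0.30). Over all comparisons, 17 of the 48 members were called at least once and 31 never, the untested Srsf12 among the latter. The share of all genes called at least once is not given here, so this count has no background. Each single comparison called between 16.2% and 28.0% of all tested genes. The uncalled members of highest mean level were Srsf5 and Srsf3 among SR genes, Sf3b5 and Sf3b2 among SF3 genes, Snrpg and Snrpb among snRNP genes, and Hnrnpa2b1 and Hnrnpm among hnRNP genes. Hnrnpa1, Hnrnpf and Sf3b3 were called higher in KOb against both FFa and KOa, again without a share of all genes to set beside them.

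Further genes of the pathway came from 9 lists, 160 genes in all. In 8 of them, which hold the other spliceosome, regulator and assembly genes, 7 were called higher and 10 lower of 149 tested in KOa, 18 higher and 2 lower in KOb against FFa, and 22 higher and 4 lower in KOb against KOa. Over all tested genes, to be read beside these counts and those of each list below, 7.99% were higher and 14.1% lower in KOa, 12.8% and 15.2% in KOb against FFa, and 10.0% and 6.19% in KOb against KOa. Of the genes that assemble Sm rings onto snRNA, 6 of 14 were higher and 0 lower in KOb against FFa (8 higher and 0 lower at an unadjusted p below 0.05, and 1 higher with the normal reading, by the deposited Cuffdiff statistic). At that unadjusted p, 1983 of all 10584 tested genes were higher and 2223 lower. Prmt5, the methyltransferase that modifies Sm proteins, had 7.96 FPKM in KOb and 3.66 in KOa, against 3.49 FPKM in FFa (KOb over FFa 1.19 ± 0.33). Clns1a, the chaperone that holds Sm proteins, had 4.21 FPKM in KOb and 2.72 in KOa, against 2.08 FPKM in FFa (1.01 ± 0.35). Gemin6 of the SMN complex had 3.44 FPKM in KOb and 2.23 in KOa, against 1.65 FPKM in FFa (1.06 ± 0.50). The median log2 ratio of this list in KOb over FFa was 0.65, against 0.01 for the Sm ring genes themselves.

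Tri-snRNP and LSm genes were called higher in 2 and lower in 2 of 22 in KOa (beside 7.99% and 14.1% of all tested genes), and higher in 4 and lower in 0 in KOb against FFa (beside 12.8% and 15.2%). Prpf31, mutated in human retinal degeneration, was called in all 3 comparisons, with 4.81 FPKM in KOa and 7.44 in KOb, against 3.20 FPKM in FFa (KOb over FFa 1.22 ± 0.34). Lsm7 and Lsm5, of the ring that binds U6 snRNA, were the lower ones in KOa: Lsm7 had 17.8 FPKM in KOa against 38.8 FPKM in FFa (-1.12 ± 0.24), and Lsm5 had 3.21 FPKM in KOa against 8.39 FPKM in FFa (-1.39 ± 0.44). Both were called higher in KOb against KOa, Lsm7 at 34.8 FPKM in KOb. Of 27 catalytic-stage and release genes 3 were called higher and 0 lower in KOa, with the same counts for KOb against FFa. Bcas2, of the Prp19 complex, had 78.1 FPKM in KOa and 70.5 in KOb, against 39.0 FPKM in FFa (1.00 ± 0.26 and 0.85 ± 0.26), and Cwc27, a cyclophilin of the spliceosome, 5.10 and 4.82 against 1.99 FPKM (1.36 ± 0.39 and 1.27 ± 0.39).

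Other RNA-binding regulators were called lower in 5 and higher in 0 of 29 in KOa, a share of 17.2% beside 14.1% of all tested genes called lower, with Sfpq, a paraspeckle and splicing protein, at 27.1 FPKM in KOa against 51.5 FPKM in FFa (-0.92 ± 0.30). In KOb against FFa 2 were higher and 2 lower. The cold-shock protein gene Ybx1 had 46.4 FPKM in KOb against 23.2 FPKM in FFa (1.00 ± 0.28), and Mbnl1, a muscleblind splicing regulator, had 70.2 FPKM in KOb against 46.9 FPKM in FFa (0.58 ± 0.31). Rbm38, an RNA-binding protein of late erythroid splicing, had 324.6 FPKM in KOb against 534 FPKM in FFa (-0.72 ± 0.29), a sign that turned (0.19) with FPKM scaled to the same sum. In KOb against KOa 8 of these regulators were higher and 1, Rbm38, was lower, again with the sign turned under that scaling (0.19).

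Of 18 SR-related genes and SR kinases none was called in KOa (2 higher and 2 lower at an unadjusted p below 0.05 and 0 with the normal reading, by the deposited Cuffdiff statistic). At that unadjusted p, 1340 of all 10761 tested genes were higher and 2129 lower. In KOb against FFa 1 was higher, Srpk1, the kinase that phosphorylates SR proteins in the cytoplasm, with 5.29 FPKM in KOb against 3.15 FPKM in FFa (0.75 ± 0.35). The remaining lists held few calls. Early U1 and U2 factors had 1 higher and 1 lower of 20 in KOa and 1 higher in KOb against FFa. Of 9 exon junction complex genes 1 was called, Magohb, at 8.19 FPKM in KOb against 4.53 FPKM in FFa (0.86 ± 0.36). Of 10 minor spliceosome genes 1 was lower in KOa, Pdcd7, at 0.776 FPKM in KOa against 1.54 FPKM in FFa (-0.98 ± 0.52), and 0 were called in KOb against FFa by the authors' Cuffdiff test (0 at an unadjusted p below 0.05 and 0 with the normal reading). Of 10 nonsense-mediated decay genes 1 was higher and 1 lower in KOa, and 1 was lower in KOb against FFa. Upf1, the helicase of that pathway, had 18.9 FPKM in KOa against 11.4 FPKM in FFa (0.73 ± 0.30).

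**Figure D4:**
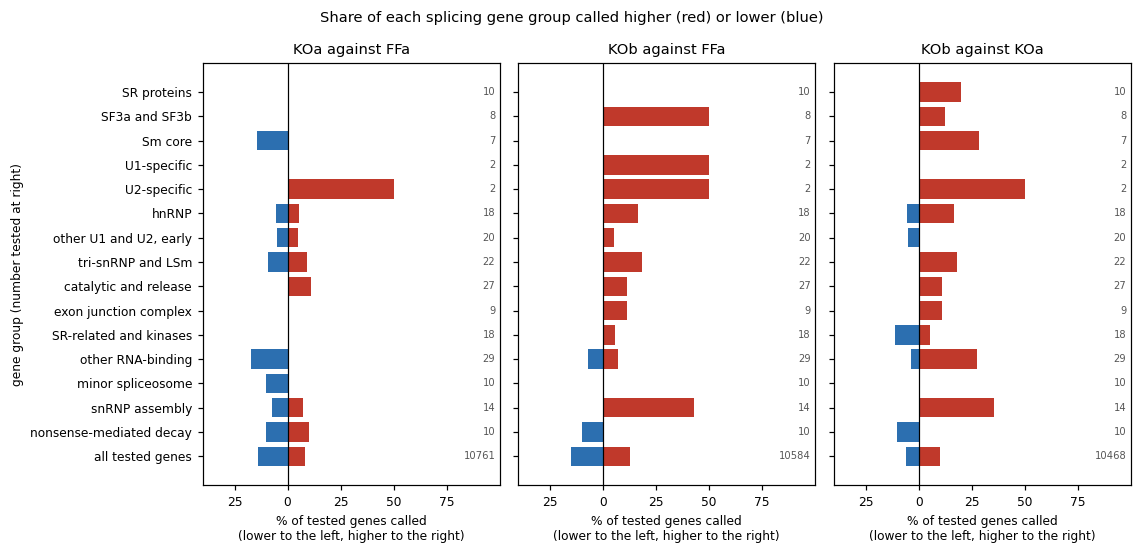
Share of the tested genes of each splicing group called lower (blue, left) or higher (red, right) in each comparison, with the number tested at the right edge and all tested genes in the last row. In KOb against FFa the SF3 genes (4 of 8) and the snRNP assembly genes (6 of 14) have the longest bars among groups of more than 2 genes, beside 12.8% called higher among all tested genes, and SR proteins have none.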

How the data were processed

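Libraries were prepared from total RNA (NuGEN Encore Complete, per the labels' protocols). The build mm10 and the tools Cuffdiff 2.1.1, TopHat2 2.0.8b and Bowtie2 2.1.0 are named by the submitters' processing notes. The sources used here do not name the annotation, the filters, the scaling between libraries or the strand setting. For each gene the authors deposited FPKM values pooled over the 3 libraries of a group, the log2 ratio of each pair of groups without pseudocount, the test statistic as a score, and its p-value and q-value. Recomputing showed that q is the Benjamini-Hochberg adjustment over all 31813 tested results (largest difference 5.27e-07), with a smallest q of 0.000619 that corresponds to a p of 5e-05. For 96.0% of tested results the deposited p is below the standard normal p of its statistic, and that normal reading was run as an alternative.

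Computed here with Python 3.11.15, pandas 2.3.3, NumPy 2.4.6 and SciPy 1.17.1 were folds, implied standard errors, medians, counts, scalings and motif matches. The adjustment was tested on simulated data. Without values per library no model, interval or detection floor could be had, and the labels do not say whether libraries came from separate mice, so the tests may measure partly technical spread. The members and lists were chosen with earlier results of these data known. Members called at least once are named, with the most abundant uncalled members of each family and, of each further list, some of the called genes of largest change. Of the list genes, 5 were matched through RefSeq synonyms. Overlapping entries were found from the deposited loci. Gene positions are from GENCODE M21 and promoters from RefSeq, both on GRCm38, the assembly named mm10. Protein sequences were not used here.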

Additional observations from a re-analysis of the deposited data

Results flagged for a closer look

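The ratios of KOa and KOb to FFa differed, by the authors' test of KOb against KOa, for 10 of 47 tested members (21.3%). Over all tested genes the share was 16.2%, and the normal reading called 1 of these members, Snrpd3. The log2 ratio of KOb over KOa was 1.10 for Hnrnpa1, 0.75 for Snrpb2, 0.73 for Snrpf and 0.70 for Snrpd3. It was 0.61 for Sf3b3, 0.59 for Srsf9, 0.53 for Hnrnpf, 0.49 for Srsf2 and 0.45 for Hnrnpc, and -0.63 for Hnrnpul1. On the deposited scale Snrpd3 was lowest and Hnrnpul1 highest in KOa, while KOb and FFa were not called different. The normal reading called neither in KOa against FFa. This order depends on the scaling. Without globin, Snrpd3 had log2 ratios of -0.0008 for KOa over FFa and 0.67 for KOb over KOa, and at the same sum with globin -0.58 and 1.65. With FPKM scaled to the same sum, Hnrnpul1 had 0.40 for KOa over FFa and 0.32 for KOb over KOa, and without globin 0.98 and -0.66. The gate and the degree of deletion differ together between KOb and KOa and cannot be told apart.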

How the results depend on the processing

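With p from a standard normal at the deposited statistic, the members called were 0 for KOa against FFa (4 as deposited), 1 for KOb against FFa (9 as deposited) and 1 for KOb against KOa (10 as deposited). With a q below 0.01 the counts were 1, 3 and 5 in the same order, and with a fold of at least 1.5 they were 1, 4 and 7. Without the 9 members whose locus overlaps another entry, a choice made after seeing the data, they were 4, 5 and 7. Shares of all tested genes at these q, fold and overlap settings are not given here, so these counts have no background. Adjusting q within each comparison added Hnrnpc and Hnrnph3 to KOb against FFa and took Hnrnpc from KOb against KOa. The expression minimums and the joined entry left the counts within 1.5 times. Scaled to the same sum, the members' median log2 ratio was 1.07 for KOb over FFa and 1.16 for KOb over KOa, and without globin it was 0.52 in KOa against FFa and 0.67 in KOb against FFa, as such scaling adds 1 constant to all genes. These scalings turned the sign of Hnrnph1 in KOa against FFa (0.0463, without globin) and of Hnrnpul1 in KOb against KOa (0.32, same sum), and of none of the other called members, although Snrpd3 in KOa against FFa came to -0.0008 without globin. No paired analysis was possible because the deposited columns hold 1 value per group, and leaving out replicates was not run for the same reason. Small differences could not be detected: the median implied standard error of a member's log2 ratio was 0.29 in each comparison.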
